A study of Mus musculus with 8 samples.

Results

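The Notch signalling genes described here are 10 genes in 3 roles, counted in endothelial cells (ECs) of the mouse brain. They are the ligands *Dll1*, *Dll4*, *Jag1* and *Jag2*, the receptors *Notch1* and *Notch4*, and the target genes *Hes1*, *Hey1*, *Hey2* and *Heyl*. They were taken by name from the 49315 genes in the count files, through the Ensembl identifier of each gene, and all 10 passed the filter on low counts that left 16887 genes for testing. ECs were isolated at postnatal day 9 (P9) with magnetic beads against CD31, a surface protein of endothelium, from 4 mutant and 4 wild-type pups with 1 RNA-seq library per pup. Mutant pups were R26 GT-Map2k1-GFP/+;Tg-Cdh5CreER+/-, and litters of both genotypes had received 100 µg of tamoxifen at P1. In mutant pups, tamoxifen activates a Cre recombinase driven by the endothelial *Cdh5* promoter. Cre then removes a stop cassette at the *Rosa* locus and switches on a *Map2k1* cDNA with the activating K57N change, together with GFP, from a strong general promoter. Recombination reached only part of the ECs, so each mutant library mixes recombined and other cells. The other pups are labelled wild type only, so effects of Cre, of GFP and of an added *Map2k1* copy cannot be told apart from that of K57N. The p-values given below weigh the difference between the groups against the spread between pups.

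Notch receptors and their ligands are membrane proteins of neighbouring cells. Binding of a Delta-like or Jagged ligand leads to cleavage of the receptor, and the freed intracellular part enters the nucleus, joins the DNA-binding protein RBPJ and switches on genes such as those of the Hes and Hey repressors. In growing vessels this exchange is known to separate leading tip cells from the stalk cells behind them, to favour arterial over venous character, and to bind mural cells (pericytes and smooth muscle) to the endothelium.

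Counts on genes totalled 24833373 to 34196955 per library in mutants and 28146348 to 32208421 in wild types. *Map2k1* had 12660 to 18687 normalized counts in mutant and 1502 to 1758 in wild-type libraries, so the targeted gene matched the labels. Normalized counts here are counts scaled by edgeR's TMM method to the mean library size. The 10 endothelial markers summed to 288876 to 345257 normalized counts in mutant and 284776 to 345587 in wild-type libraries. The sums thus overlapped between the groups, but *Cdh5* averaged 77899 in mutant and 36155 in wild-type libraries, and *Slco1c1* 17441 and 65739. Because of such opposite shifts the sum does not show whether endothelial content was equal, and single markers differed. In mutants 3 were higher and 3 lower at an edgeR adjusted p under 0.05. The higher ones were *Cdh5* (log2FC 1.11), *Emcn* (0.82) and *Pecam1* (0.53), and the lower ones *Slco1c1* (-1.91), *Cldn5* (-0.47) and *Tek* (-0.44). Markers of other cells were present and differed between the groups. The 7 oligodendrocyte lineage markers summed to 976 to 1877 in mutant and 3023 to 8103 in wild-type libraries, the 9 neuron markers to 591 to 916 and 1078 to 3478, and the 3 red blood cell markers to 2250 to 7393 and 13737 to 23835. Neuron markers were highest in wild types 1 and 3. Of the 7 astrocyte markers, 1 was higher (*Gja1*, log2FC 0.80) and 2 lower (*Aldh1l1* and *S100b*) at an edgeR adjusted p under 0.05, with a median log2FC of -0.60. Their sum, 18438 to 22128 in mutant and 10918 to 12953 in wild-type libraries, was nearly all *Gja1*, with means of 19413 and 11132. The 7 microglia and macrophage markers summed to 2823 to 10722 and 3010 to 12634, and the 4 fibroblast markers to 26771 to 34034 and 20228 to 29427. No marker was at 0 in every library, and the part of these cells in the results was not tested. The 10 mural markers summed to 20981 to 35506 and 19898 to 37112, a sum carried by *Rgs5* (means of 14859 and 20212, log2FC -0.44, edgeR adjusted p = 0.137). Of these 10, 3 were higher in mutants, *Abcc9* (log2FC 1.78, edgeR adjusted p = 2.36e-04), *Kcnj8* (0.81, edgeR adjusted p = 0.0242) and *Tagln* (0.73, edgeR adjusted p = 0.0367), and none was lower. In such bulk samples, fewer cells of a type and less RNA per cell cannot be told apart.

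Sequence upstream of the start site was available for 7 of the 10 genes in the RefSeq promoters of GRCm38.p6, and *Hey1*, *Heyl* and *Hes1* were not among them. The 250 bases before the start were searched on both strands for TGGGAA, the core letters bound by RBPJ, and for the longer GTGGGAA that contains it. Of 32851 mouse promoters, 21.6% held TGGGAA and 5.42% held GTGGGAA. Among the 8 promoters of these 7 genes (*Dll1* has 2), *Hey2* held both, on the minus strand of the printed sequence, with the match starting 207 bases before the start. The other promoters held neither in this window. Shown are *Hey2* because it is the target gene with a match, and *Dll4* and *Jag2* because they are the ligands that differed between the groups below. Capitals mark the letters TTCCCA, the reverse complement of TGGGAA. The *Hey2* stretch is chr10:30842784-30843033 on the minus strand, with 71.6% G or C, the *Dll4* stretch is chr2:119325534-119325783 on the plus strand, with 65.6%, and the *Jag2* stretch is chr12:112929496-112929745 on the minus strand, with 87.2%.
Hey2: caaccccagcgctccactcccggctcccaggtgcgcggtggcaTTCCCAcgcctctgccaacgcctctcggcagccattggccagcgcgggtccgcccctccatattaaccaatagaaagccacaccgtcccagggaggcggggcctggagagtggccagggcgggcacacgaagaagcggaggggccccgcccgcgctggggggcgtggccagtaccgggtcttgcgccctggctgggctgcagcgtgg
Dll4: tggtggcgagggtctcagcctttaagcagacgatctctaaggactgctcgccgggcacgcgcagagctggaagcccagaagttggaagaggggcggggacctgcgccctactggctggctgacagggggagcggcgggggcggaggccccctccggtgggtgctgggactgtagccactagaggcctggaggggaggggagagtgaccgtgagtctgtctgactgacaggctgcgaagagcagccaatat
Jag2: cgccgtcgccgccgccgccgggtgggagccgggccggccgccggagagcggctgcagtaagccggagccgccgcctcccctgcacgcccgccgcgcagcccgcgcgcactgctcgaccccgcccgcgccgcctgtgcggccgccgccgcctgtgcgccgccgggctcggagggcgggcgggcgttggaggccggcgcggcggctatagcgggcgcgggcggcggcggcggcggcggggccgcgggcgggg

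Across the 10 genes, 5 had a lower level in mutant ECs at an adjusted p under 0.05. They were *Hes1*, *Jag2*, *Hey1*, *Hey2* and *Dll4* by the quasi-likelihood test of edgeR, with p-values adjusted by Benjamini-Hochberg over all 16887 genes and log2FC standing for the log2 ratio of mutant to wild type. Over all genes tested 22.9% were lower at that threshold. When the log2FC also had to exceed 1 in size, *Hes1* remained, and 8.05% of all genes were lower by that rule and 5.9% higher. In the fit without blocks, none of the 10 was higher at an adjusted p under 0.05 in edgeR or DESeq2, and 0 of the 10 were higher at an unadjusted p under 0.05 in edgeR, where 21.5% of all genes were higher after adjustment. With the label prefixes described below as a block, 2 were higher (*Jag1* and *Notch4*) and 6 lower at an edgeR adjusted p under 0.05. With that block 8610 of 16887 genes passed in either direction, against 7504 without it. All 4 mutant libraries lay below all 4 wild-type libraries for 6 of the 10, the 5 named and *Notch1*, and for 21.9% of all genes, while all mutants lay above for none of the 10 and for 20.6% of all genes (42.5% in either direction). The median log2FC was -0.28 over the 10 genes and -0.02 over all genes tested. Without wild types 1 and 3, the libraries with the most neuron marker counts, 4 genes were lower at an adjusted p under 0.05, and *Dll4* was the one lost, at a log2FC of -0.32 (edgeR adjusted p = 0.179). In that fit of 6 libraries, 4947 of 17375 genes had an adjusted p under 0.05 in either direction, against 7504 of 16887 with all 8.

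**Figure D1:**
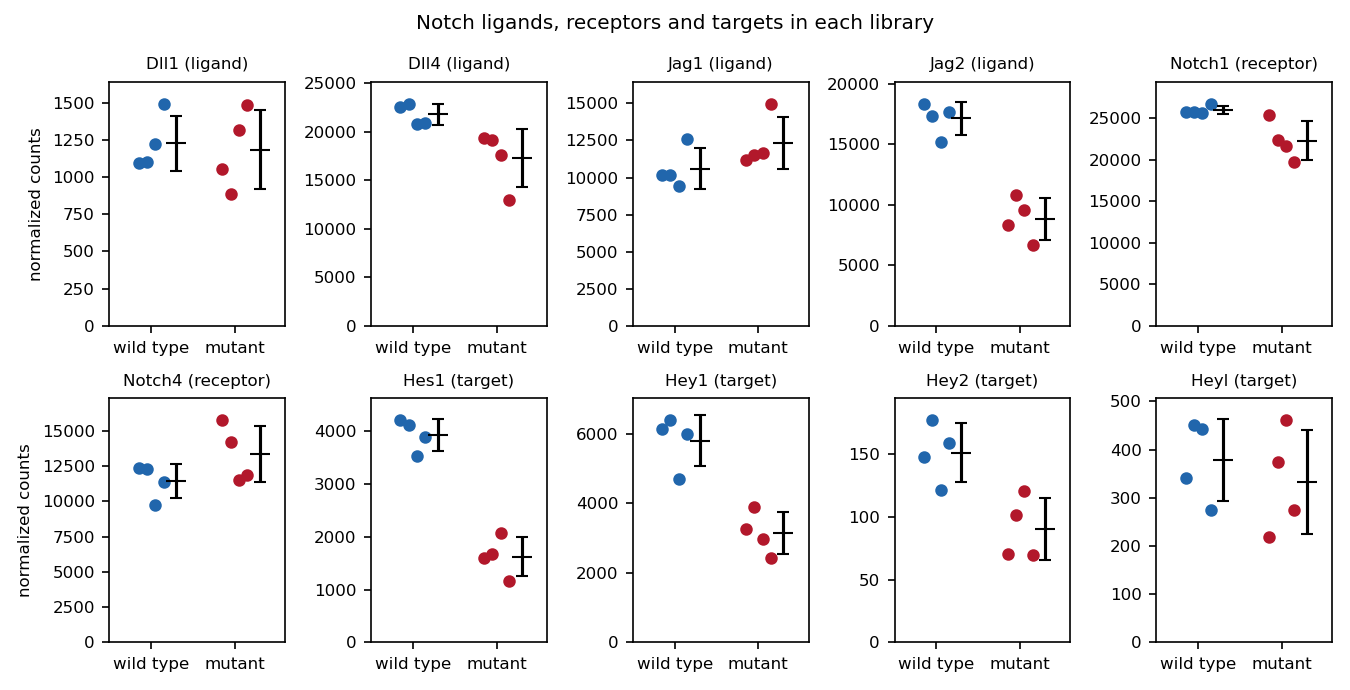
Normalized counts (vertical axes, linear from 0) of the 4 ligands, 2 receptors and 4 targets in each wild-type (blue) and mutant (red) library, 1 point per library, in the order of replicates 1 to 4, with the mean and SD of each group in black. The groups are apart for *Dll4*, *Jag2*, *Notch1*, *Hes1*, *Hey1* and *Hey2*, and overlap for *Dll1*, *Jag1*, *Notch4* and *Heyl*.

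Among the ligands, the largest difference was that of *Jag2*. *Jag2* (ENSMUSG00000002799), a Jagged ligand, is on the minus strand of GRCm38 chromosome 12 from 112908590 to 112929495. It had 8314, 10801, 9544 and 6674 normalized counts in mutants 1 to 4, and 18341, 17336, 15177 and 17663 in wild types 1 to 4. The highest mutant was well below the lowest wild type. The mean fell from 17129 ± 1367 (SD, n = 4) to 8833 ± 1762 in mutants, which is 1.94-fold lower. The fitted log2FC was -0.96 ± 0.14 (SE, edgeR adjusted p = 3.1e-04), just short of the fold limit of 1. Upper-quartile scaling took it to -1.02.

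*Dll4* (ENSMUSG00000027314), the Delta-like ligand of tip cells and arterial ECs, is on the plus strand of chromosome 2 from 119325784 to 119335962. It had 19407, 19144, 17619 and 12946 normalized counts in mutants 1 to 4, and 22600, 22889, 20805 and 20852 in wild types 1 to 4. Mutant 4 was the lowest by a wide margin, and the groups did not overlap. The fitted log2FC was -0.33 ± 0.12 (SE, edgeR adjusted p = 0.0445). The call was lost without any 1 of 6 of the 8 libraries, mutants 3 and 4 and all wild types, and without mutant 4 the fitted log2FC was -0.20 (edgeR adjusted p = 0.0613). *Gm14207*, a transcript on the opposite strand that overlaps *Dll4*, averaged 188 normalized counts, where *Dll4* averaged 17279 in mutants and 21786 in wild types. Because the use of strand in counting is not stated, reads of *Gm14207* and of *Dll4* cannot be told apart.

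*Jag1* (ENSMUSG00000027276), the other Jagged ligand, on the minus strand of chromosome 2 from 137081456 to 137116644, went the other way without passing the test. It had 11186, 11505, 11651 and 14973 normalized counts in mutants 1 to 4, and 10194, 10165, 9396 and 12617 in wild types 1 to 4. Wild type 4 lay above 3 of the mutants, so the groups overlapped. The fitted log2FC was 0.22 ± 0.12 (SE, edgeR adjusted p = 0.159), and it was 0.31 without wild type 4 (edgeR adjusted p = 0.0487). With the label prefixes described below as a block, *Jag1* passed the threshold at a log2FC of 0.22 (edgeR adjusted p = 0.0122).

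*Dll1* (ENSMUSG00000014773), a Delta-like ligand with its own place in neural progenitors, is on the minus strand of chromosome 17 from 15367354 to 15376872. It had 1051, 888, 1316 and 1481 normalized counts in mutants 1 to 4, and 1094, 1102.5, 1219 and 1493 in wild types 1 to 4. The groups overlapped, with mutants 1 and 2 below all wild types. Its log2FC was -0.05 ± 0.16 (SE, edgeR adjusted p = 0.821), and its sign turned without mutant 1, mutant 2 or wild type 4.

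The receptors were abundant in both groups and moved little. *Notch1* (ENSMUSG00000026923), on the minus strand of chromosome 2 from 26457903 to 26516663, had 25458, 22349, 21724 and 19740 normalized counts in mutants 1 to 4, and 25792, 25796, 25698 and 26757 in wild types 1 to 4. The wild types were close together, mutant 1 was just below them and mutant 4 farthest below. The fitted log2FC was -0.22 ± 0.08 (SE, edgeR adjusted p = 0.0556), so that *Notch1* missed the threshold although the groups did not overlap. With the label prefixes as a block it passed at -0.23 (edgeR adjusted p = 0.0371). It also passed without mutant 1 (log2FC -0.27, edgeR adjusted p = 0.0194).

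*Notch4* (ENSMUSG00000015468), a receptor found mostly in endothelium, is on the plus strand of chromosome 17 from 34564268 to 34588503. It had 15748, 14228, 11502 and 11895 normalized counts in mutants 1 to 4, and 12373, 12306, 9728 and 11377 in wild types 1 to 4. Mutants 1 and 2 lay above all wild types and mutants 3 and 4 among them. The fitted log2FC was 0.22 ± 0.12 (SE, edgeR adjusted p = 0.152). With the label prefixes as a block, *Notch4* passed the threshold at a log2FC of 0.22 (edgeR adjusted p = 0.0225).

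The target genes held the largest change of the 10. *Hes1* (ENSMUSG00000022528), a basic helix-loop-helix repressor that answers to Notch and to other signals, is on the plus strand of chromosome 16 from 30064384 to 30067796. It had 1594, 1679, 2066 and 1158 normalized counts in mutants 1 to 4, and 4202, 4103, 3517 and 3888 in wild types 1 to 4. Every mutant was far below every wild type. The mean fell from 3927 ± 303 (SD, n = 4) to 1624 ± 372 (SD, n = 4), which is 2.42-fold lower. Its log2FC of -1.27 ± 0.15 (SE, edgeR adjusted p = 1e-04) stayed between -1.40 and -1.12 with each library left out in turn. Neural progenitors also express *Hes1*, and 4 tested progenitor markers were lower in mutant libraries. Apart from *Nes*, which was abundant, they were low, with wild-type means of 79.5 for *Sox2*, 182 for *Pax6* and 189 for *Fabp7*. Their part in the difference of *Hes1* was not tested.

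*Hey1* (ENSMUSG00000040289), a related repressor of ECs, on the minus strand of chromosome 3 from 8663359 to 8667256, had 3267, 3901, 2978 and 2429 normalized counts in mutants 1 to 4. Wild types 1 to 4 had 6129, 6385, 4710 and 5984. The lowest wild type, replicate 3, was still above the highest mutant, replicate 2. *Hey1* was 1.85-fold lower, with a log2FC of -0.88 ± 0.14 (SE, edgeR adjusted p = 6.86e-04).

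*Hey2* (ENSMUSG00000019789), known for its part in arterial ECs, is on the minus strand of chromosome 10 from 30832359 to 30842801, and was much scarcer. It had 70.7, 101, 120 and 69.5 normalized counts in mutants 1 to 4, and 148, 177, 122 and 159 in wild types 1 to 4. Mutant 3 and wild type 3 were almost equal, so the groups were apart by little. The fitted log2FC was -0.74 ± 0.21 (SE, edgeR adjusted p = 0.0166). *Hey2* missed the threshold of 0.05 without mutant 1 (edgeR adjusted p = 0.0503) or wild type 2 (edgeR adjusted p = 0.0514).

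*Heyl* (ENSMUSG00000032744), which mural cells express downstream of the receptor *Notch3*, is on the plus strand of chromosome 4 from 123233556 to 123249875. It had 218, 375, 461 and 274 normalized counts in mutants 1 to 4, and 341, 452, 443 and 275 in wild types 1 to 4. The groups overlapped, and the fitted log2FC was -0.19 ± 0.24 (SE, edgeR adjusted p = 0.549). Libraries high in *Heyl* were those high in mural markers. Per 1000 counts on the 10 mural markers, mostly *Rgs5*, *Heyl* was between 10.4 and 14.0 in mutant and between 11.9 and 13.8 in wild-type libraries, although *Heyl* itself varied from 218 to 461. *Notch3*, with a log2FC of -0.19 ± 0.27 (SE, edgeR adjusted p = 0.593), gave 115 to 137 and 99.5 to 145 on the same scale. *Jag1* spread more widely, from 328 to 644 and from 253 to 634.

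**Figure D2:**
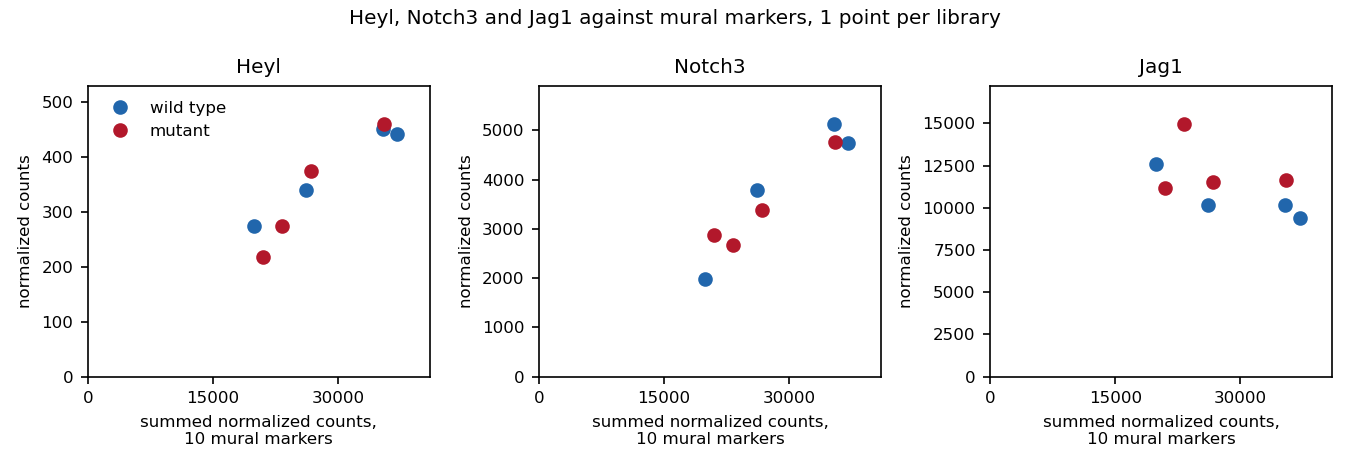
Normalized counts (vertical axes) of *Heyl*, *Notch3* and *Jag1* against the summed normalized counts of 10 mural markers (horizontal axes), 1 point per library, with wild types in blue and mutants in red. *Heyl* and *Notch3* lie along a rising line shared by both groups, between 19898 and 37112 marker counts, and *Jag1* does not.

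**Figure D3:**
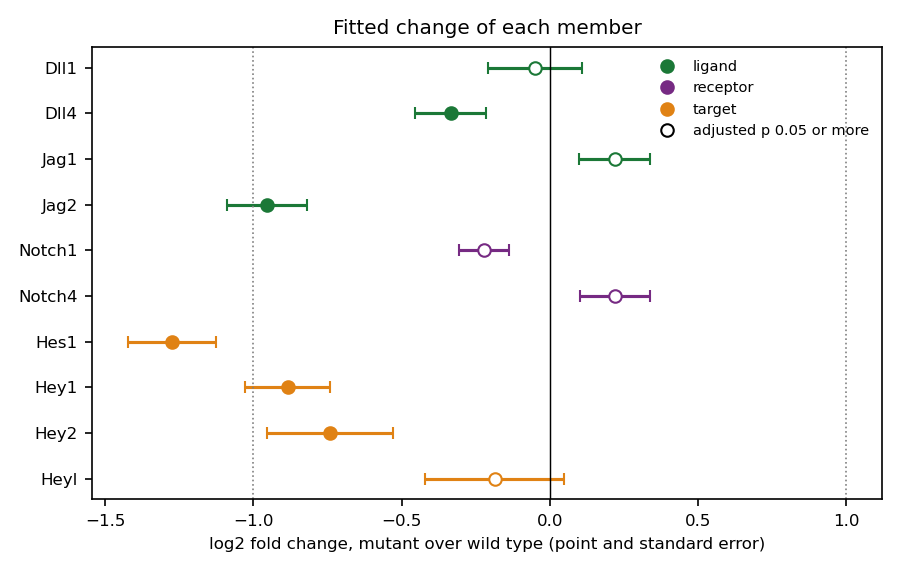
Log2 fold change of mutant over wild type (horizontal axis) for each gene, as the fitted value with its standard error, for ligands in green, receptors in purple and targets in orange. Filled points have an adjusted p under 0.05, and *Hes1*, at -1.27, is the one past the dotted line at -1.

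The sample labels carry 3 prefixes, each with libraries of both groups, which cover replicates 1 and 2, replicate 3 and replicate 4. The labels do not say what the prefixes stand for. By the study's methods, wild types were chosen to match the mutants of the same litter in number. Mutant was below wild type within every prefix for *Hes1*, with log2 CPM differences of -1.34, -0.77 and -1.75 in that order, for *Jag2* (-0.91, -0.67 and -1.40), for *Hey1* (-0.81, -0.66 and -1.30) and for *Hey2* (-0.92, -0.01 and -1.17). *Dll4* differed by -0.24, -0.24 and -0.69, and *Notch1* by -0.11, -0.24 and -0.44. Mutant was above wild type in every prefix for *Jag1* (0.16, 0.31 and 0.25) and *Notch4* (0.28, 0.24 and 0.06). *Dll1* (-0.19, 0.11 and -0.01) and *Heyl* (-0.45, 0.06 and -9e-04) had no common sign. The prefix of replicate 4 gave the largest fall for the 6 genes whose groups did not overlap, and mutant 4 was the lowest mutant for the same 6. *Map2k1* did not follow this order, with 18687, 12660, 12675 and 14306 normalized counts in mutants 1 to 4. The prefixes of replicates 3 and 4 hold 1 library per group and allow no test of their own.

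**Figure D4:**
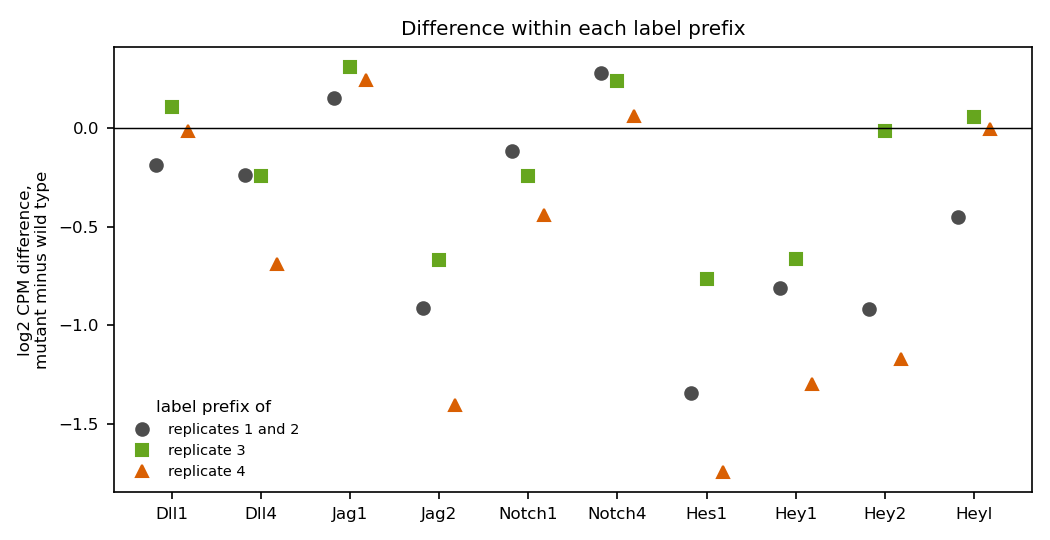
Difference in log2 CPM, mutant minus wild type (vertical axis), for each gene within the 3 label prefixes, which hold replicates 1 and 2 (circles, difference of the group means), replicate 3 (squares) and replicate 4 (triangles). The triangles are lowest for *Dll4*, *Jag2*, *Notch1*, *Hes1*, *Hey1* and *Hey2*, at -1.75 for *Hes1*.

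Levels of different genes were compared per length, as RPKM computed from the TMM-scaled counts and the gene length in the files. In wild-type ECs the ligand *Dll4* was highest (191 ± 9.76, SD, n = 4) and *Jag2* next (143 ± 11.4). *Hes1* (65.1 ± 5.03), *Notch1* (61.7 ± 1.19), *Jag1* (61.4 ± 8.11) and *Hey1* (60.0 ± 7.72) followed, with overlapping ranges of mean ± SD. Library by library, *Hey1* was below *Hes1* in every wild type. *Notch4* stood at 48.0 ± 5.16, *Dll1* at 9.82 ± 1.49, *Heyl* at 2.49 ± 0.563 and *Hey2* at 1.11 ± 0.171. In mutant ECs *Dll4* was still highest (152 ± 26.3, SD, n = 4). *Jag2* (73.6 ± 14.7) and *Jag1* (71.5 ± 10.3) overlapped in mean ± SD, as did *Notch4* (55.9 ± 8.40) and *Notch1* (53.0 ± 5.63). *Hey1* (32.5 ± 6.34) and *Hes1* (26.9 ± 6.18) came below the receptors, and *Dll1* (9.48 ± 2.12), *Heyl* (2.19 ± 0.710) and *Hey2* (0.666 ± 0.183) were again last. The order of the middle genes depends on the length used. With the longest protein-coding transcript, *Notch1* stood at 92.6, *Hes1* at 90.4 and *Jag2* at 113 in wild types.

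Ratios between ligands, receptors and targets are given as values without a test. On the same scale per kilobase, *Dll4* over *Jag1* was 2.62, 2.52, 2.29 and 1.31 in mutants 1 to 4 and 3.35, 3.41, 3.35 and 2.5 in wild types 1 to 4. Mutants 1 and 2 were above wild type 4, so the groups overlapped. *Dll4* over *Jag2* was 2.46, 1.87, 1.94 and 2.04 in mutants and 1.30, 1.39, 1.44 and 1.24 in wild types, without overlap. *Notch4* over *Notch1* was 1.09, 1.12, 0.935 and 1.06 in mutants and 0.847, 0.842, 0.668 and 0.751 in wild types, also without overlap. *Hey1* over *Hes1* was 1.28, 1.45, 0.899 and 1.31 in mutants and 0.910, 0.971, 0.836 and 0.960 in wild types, with mutant 3 among the wild types. The size of these ratios depends on the gene length used, while the order of the libraries within a ratio does not. With the longest protein-coding transcript, the mean level of *Notch4* was 68.4 and that of *Notch1* 79.5 in mutants, and 58.7 and 92.6 in wild types, so that *Notch4* was then below *Notch1* in both groups.

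The other genes of the pathway passed the test about as often as genes in general. Of 53 listed genes 50 were tested, and *Dlk2*, *Hes2* and *Hes3* did not pass the filter on low counts. By edgeR, 7 were higher and 16 lower once p-values were adjusted, at the threshold of 0.05, or 46% in all, beside 44.4% of all genes. With the fold limit, 2 were higher and 6 lower, or 16% beside 14% of all genes. The median log2FC of the 50 was 0.03. Without wild types 1 and 3, where the count over all genes also fell (from 7504 to 4947, and from 2356 to 1967 by the fold limit), 8 were lower at an adjusted p under 0.05 and 3 of them by the fold limit.

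Of the 6 enzymes that add or extend receptor sugars, 4 were lower at an edgeR adjusted p under 0.05, beside 22.9% of all genes. They were *Lfng*, *Rfng*, *Eogt* (log2FC -0.79) and *Pofut1* (log2FC -0.50). *Eogt* and *Pofut1* are named after their values were seen. *Lfng*, a Fringe that lengthens the sugars and changes which ligand a receptor prefers, had 251, 369, 545 and 318 normalized counts in mutants 1 to 4 and 1025, 946, 824 and 919 in wild types 1 to 4. All mutants were below all wild types, with a log2FC of -1.32 ± 0.20 (SE, edgeR adjusted p = 4.51e-04). *Rfng*, another Fringe, fell from 690 ± 47.5 (SD, n = 4) to 320 ± 40.1 (SD, n = 4), with a log2FC of -1.11 (edgeR adjusted p = 3.81e-05). The third Fringe, *Mfng*, had a mean of 3602 normalized counts in mutant and 3378 in wild-type ECs (log2FC 0.09, edgeR adjusted p = 0.377).

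Among the other ligands and receptors, *Dlk1*, a Delta-like protein without the domain that activates receptors, had a log2FC of 1.31 ± 0.33 (SE, edgeR adjusted p = 0.00899) with 85.1 ± 45.7 (SD, n = 4) normalized counts in wild types against 212 ± 41.3 (SD, n = 4) in mutants. *Dner*, a neuronal ligand, fell by 2.20 on the log2 scale (edgeR adjusted p = 0.00717) and had 94.6, 55.3, 170 and 43.1 normalized counts in wild types 1 to 4 and 7.58, 12.1, 18.8 and 38.2 in mutants 1 to 4. Mutant 4 was close to wild type 4. *Notch2* had a log2FC of 0.21 (edgeR adjusted p = 0.24).

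Of 13 genes for ligand endocytosis and ubiquitin transfer, 2 were higher and 4 lower, beside 21.5% and 22.9% of all genes. *Neurl1b*, a ubiquitin ligase of ligands, had 624, 418, 352 and 679 normalized counts in mutants 1 to 4 and 147, 155, 121 and 142 in wild types 1 to 4. Every mutant was above every wild type, and the fitted log2FC was 1.88 ± 0.21 (SE, edgeR adjusted p = 8.14e-05). *Dtx1*, a Deltex ligase that acts on receptors, fell by 2.45 on the log2 scale ± 0.41 (SE, edgeR adjusted p = 8.07e-04), from 57.1 ± 14.5 (SD, n = 4) to 10.1 ± 6.04 (SD, n = 4).

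Of 10 genes for receptor cleavage, 3 were higher and 1 lower, beside 21.5% and 22.9% of all genes. *Aph1b*, a subunit of the gamma-secretase that frees the intracellular part, rose by 0.92 on the log2 scale (edgeR adjusted p = 5.24e-04), and *Furin*, which cuts the receptor on its way to the surface, by 0.29 (edgeR adjusted p = 0.011). In the nuclear complex and its corepressors 1 of 12 was higher and 3 lower, beside the same shares of all genes. *Maml3*, a coactivator of the complex, had a log2FC of 0.52 (edgeR adjusted p = 0.00121) and *Kat2b*, an acetyltransferase, of -0.36 (edgeR adjusted p = 0.017). The call of *Kat2b* was lost without mutant 4 (edgeR adjusted p = 0.057). *Rbpj* itself had 1905 to 2044 normalized counts in mutants and 1661 to 2320 in wild types (log2FC 0.01, edgeR adjusted p = 0.971).

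Of the 4 tested genes among other Hes and feedback targets, 3 were lower, beside 22.9% of all genes. *Hes5*, a target best known in neural progenitors, had 5.05, 11.03, 6.63 and 2.60 normalized counts in mutants 1 to 4 and 24.8, 17.8, 18.1 and 19.99 in wild types 1 to 4. The groups did not overlap, with a log2FC of -1.68 (edgeR adjusted p = 0.00623). *Hes7* had a log2FC of -1.20 (edgeR adjusted p = 0.0283), and its call was lost without any 1 of 6 libraries, mutants 1, 2 and 4 and wild types 1, 3 and 4, with a log2FC of -0.87 without mutant 4. *Nrarp*, a feedback inhibitor that Notch switches on, had 2679, 2846, 2252 and 1316 in mutants 1 to 4 and 2991, 2897, 3186 and 2632 in wild types 1 to 4. Mutants 1 and 2 lay above wild type 4, and the fitted log2FC was -0.37 ± 0.20 (SE, edgeR adjusted p = 0.153). *Dner*, *Dtx1* and *Hes5* were low in all libraries and were lower alongside the neuron and oligodendrocyte lineage markers, of which 7 of 9 and 7 of 7 were lower in mutant libraries (adjusted p under 0.05, edgeR). Without wild types 1 and 3, *Dtx1* kept its call at a log2FC of -2.08 (edgeR adjusted p = 0.015), and *Dner* missed the threshold at -1.29 (edgeR adjusted p = 0.0993). *Hes5* (log2FC -1.56, edgeR adjusted p = 0.0583), *Hes7* (log2FC -1.14, edgeR adjusted p = 0.137) and *Furin* (log2FC 0.28, edgeR adjusted p = 0.0824) also missed it, with log2FCs close to those with all libraries. Wild types 2 and 4 still had summed oligodendrocyte lineage counts of 5719 and 3023, above the mutants (976 to 1877). The fit without wild types 1 and 3 therefore does not remove those cells, and their part in the result was not tested.

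**Figure D5:**
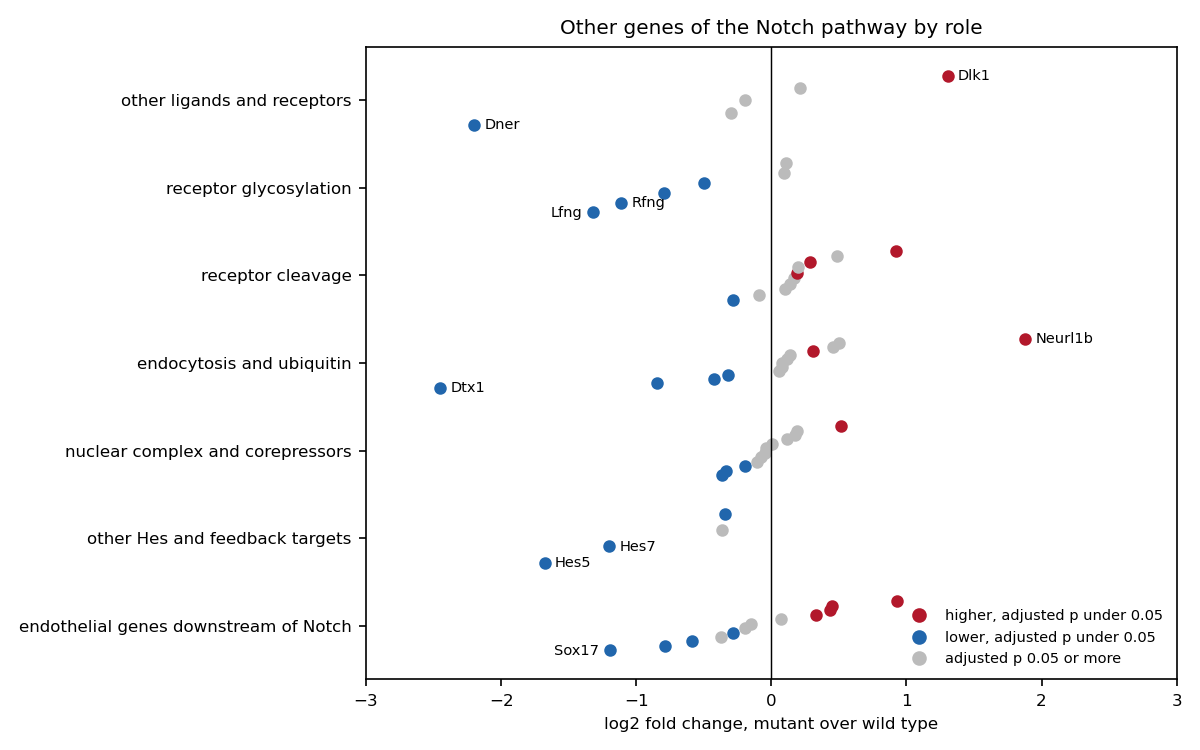
Log2 fold change of mutant over wild type (horizontal axis) for each tested gene of the other lists, grouped by role (vertical axis), with red for higher and blue for lower at an adjusted p under 0.05 and grey for the rest. Genes past the fold limit of 1 are named, and of the 6 glycosylation enzymes 4 are blue, beside 22.9% lower over all genes.

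Among 12 endothelial genes listed for a link to Notch, 4 were higher and 4 lower at an adjusted p under 0.05. Over all genes tested 21.5% were higher and 22.9% lower at that threshold. Not all of the 12 need be Notch targets, and the list was not split by direction of regulation. These counts are therefore no readout of Notch activity. *Sox17*, an arterial transcription factor, had a log2FC of -1.20 ± 0.14 (SE, edgeR adjusted p = 8.82e-05) and *Cxcr4*, a chemokine receptor of tip and arterial ECs, of 0.93 ± 0.16 (SE, edgeR adjusted p = 9.65e-04).

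The genes whose pattern over the 8 libraries was most like that of each Notch gene were found among 11380 genes that averaged 100 normalized counts or more. The measure was the root mean square difference of log2 CPM after each gene was centred on its own mean. For *Hes1* these included *Fos* (0.06) and *Sort1* (0.08), for *Jag2* they were *Gstk1* (0.05), *Fut10* (0.06) and *Hip1* (0.07), and for *Hey1* they were *Ormdl3* (0.07), *Scd2* (0.08) and *Cdk19* (0.09). *Notch4* was nearest to *Kdelr1*, *Ece1* and *Tie1*, and *Notch1* to *Atxn7l1*, *Pip5k1c* and *Prpsap1*, all at 0.05 or less. *Dll4* was nearest to *Plekhg1*, *Kif13a* and *Vps13c* (0.06 each). The nearest genes to *Jag1* were *Mycbp*, *S100pbp* and *Ngdn*, and those to *Dll1* included *Por* and *5330438D12Rik*. *Hey2* (*Pigg*, *Lama1* and *Rasgrp2*) and *Heyl* (*Wnk4*, *Gfra2* and *Myom1*) had the least close neighbours, at 0.11 to 0.13.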

How the data were processed

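Poly(A) RNA of brain ECs from 4 mutant and 4 wild-type pups was sequenced, 1 library per pup. The authors used Trimmomatic for trimming and STAR for mapping to GRCm38, and deposited whole-number counts per gene without normalization. The counting program, annotation release and use of strand are not given in the sources used here. A deposited table holds a signal, the counts of 16889 genes over 1 size factor per library. Multiplied back, 100% of its values were whole reads within 0.001, and edgeR called 2406 genes on them.

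The software was R 4.3.3 and edgeR 4.0.16, with DESeq2 1.42.0 as an alternative. Genes were filtered with filterByExpr (minimum count 10), scaled by TMM and tested with glmQLFit and glmQLFTest without covariates. The SE is the log2FC over the square root of F. A gene was called where its adjusted p was under 0.05 and its log2FC above 1 in size, which are the cut-offs of the study. The steps were tested on simulated data. Libraries of 1 group differed by more than sampling noise (chi-square per degree of freedom 7.25 to 41.6 over 12 pairs). Depth was 24833373 to 34196955 counts, so precision is limited by the spread between pups for abundant genes and by counting for genes of a few counts.

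Symbols were matched for 48970 of 49315 Ensembl IDs, and transcript lengths and overlapping genes came from GENCODE vM21. The members and lists were chosen with earlier results of these data known. Named are the 10 members, every called gene of the other lists, the 2 of largest change among those with an adjusted p under 0.05 in each list, and the 3 genes nearest to each member, of which 2 are not reported here. *Notch2*, *Notch3*, *Rbpj*, *Mfng*, *Nrarp*, *Eogt*, *Pofut1* and the named cell type markers were added after their values were seen. Alternatives were DESeq2, other scalings, filters and fold limits, blocks, and left-out libraries. The fits without wild types 1 and 3 and on recovered reads were added after the data were seen.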

Additional observations from a re-analysis of the deposited data

Results flagged for a closer look

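Each of the 10 genes was checked in each group for a library far from the other 3, by the gap to the nearest library as a share of the group's range, which makes 20 checks, of which chance alone flags about 1. *Notch1* in wild type 4, at 26757 normalized counts, was high beside the other 3 wild types, with a gap of 0.908 of a narrow range. *Jag1* in mutant 4, at 14973 normalized counts, was high beside the other 3 mutants, with a gap of 0.877.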

How the results depend on the processing

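*Hes1*, *Jag2* and *Hey1* kept their direction and an adjusted p under 0.05 in edgeR and DESeq2 under every alternative run. The number of the 10 genes lower by the fold limit was 1 and became 2 with upper-quartile scaling or library totals only, 4 with a limit of 0.58, and 1 to 3 with each library left out. The number lower at an adjusted p under 0.05 (5) ranged from 3 to 5, and the number higher (0) from 0 to 1, with each library left out. *Dll4* also missed the threshold with DESeq2-type scaling in edgeR (adjusted p = 0.0643) and without the low-count filter (0.0581), and *Notch1* passed with upper-quartile scaling (0.0103), library totals only (0.0104) and a mean of 100 or more (0.0233). *Dll1* ranged from -0.15 to 0.066 with each library left out and was above 0 without mutant 1 (0.028), mutant 2 (0.066) and wild type 4 (0.055). With the replicate number as a block, 2 of the 10 were higher, *Jag1* (0.0242) and *Notch4* (0.0347), *Notch1* passed as lower (0.0491), and over all genes 2431 were called beside 2356, with 8162 beside 7504 at an adjusted p under 0.05. Same-numbered libraries had correlations of 0.201, 0.21, 0.29 and 0.024, and mutants 2 and 4 correlated best with another number. The numbers were therefore not taken as pairs, while the study matched pups by litter, which the labels do not name. With the label prefix as a block, 2 of the 10 and 11 of the other pathway genes (7 without it) were higher, and 8610 genes in all had an adjusted p under 0.05. Of the other pathway genes, 6 were lower by the fold limit, 2 with the filter at a mean of 100 and 3 without wild types 1 and 3. That filter left *Dner*, *Dtx1*, *Hes5* and *Hes7* untested, as their means were under 100 in each group, and *Lfng* and *Rfng* kept their calls. At an adjusted p under 0.05, 16 were lower, 8 without wild types 1 and 3 (where 4947 of 17375 genes passed in all, against 7504 of 16887), and 9 to 14 with each library left out, lowest without mutant 4 (9) and wild type 1 (10). The filter at a mean of 100 called 1195 of 11400 genes tested, beside 2356 of 16887 with filterByExpr. Apart from the genes left untested by that filter, the causes of these changes were not tested. Counting limits *Hes5*, *Hes7*, *Dtx1* and *Dner*, which had under 50 counts in every mutant library.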
